A study of Mus musculus with 6 samples.

Results

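The genes described here are 9 components of the JAK-STAT pathway, namely Jak1, Jak3, Stat3, Stat4, Stat5a, Stat5b, Stat6, Socs1 and Socs3, out of 21851 protein-coding genes examined in the same way. They were taken by name, with no threshold on a measured value, though earlier results of these data were known when they were chosen. Their chromatin was profiled with 6 Mint-ChIP libraries, 3 for H3K4me3 (antibody ab8580) and 3 for H3K4me1 (antibody ab8895). Mint-ChIP is chromatin immunoprecipitation of nuclease-cut chromatin that is barcoded before samples are pooled, and it is made for small cell numbers. All libraries came from sorted germinal center (GC) cells of the spleen of mice labelled WT, 50000 cells per library. The spleens were taken at day 8 of an immunization with sheep red blood cells (SRBC). Strain and age are not given for these libraries themselves. The study's general methods place immunization at 8 to 12 weeks of age, and its other GC experiments used a C57BL/6J background. Elsewhere in the study WT also stands for animals that carry the Cγ1-cre allele, so whether these mice carried it is not settled. The labels name the cells centrocytes, the light zone fraction, and the methods of the study name GC B cells without a fraction. The labels' protocol names an H3K27Ac antibody, whereas titles, antibody labels and design name H3K4me1 and H3K4me3, which were followed here. There is no mutant group, so the comparisons are between genes, between marks and between replicate libraries. Nothing in the sources says whether the replicates came from separate mice.

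Cytokines such as interleukin-21, interleukin-4 and interleukin-6 bind receptors that lack a kinase of their own and carry JAK kinases on their inner side. The activated JAKs phosphorylate the receptor and then STAT proteins, which pair, enter the nucleus and bind DNA at a short palindrome. SOCS proteins are made in response and block JAKs or receptors, which closes a feedback loop. In GC B cells the pathway carries signals from T follicular helper cells. Trimethylation of histone H3 lysine 4 (H3K4me3) marks active promoters, and monomethylation (H3K4me1) marks enhancers and the flanks of promoters.

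For each gene, 3 zones that do not share bases were set. The promoter zone holds the bases within 5 kb of a transcription start site (TSS) of a protein-coding transcript. The body zone is the rest of the gene, and the outlying zone is what lies outside the gene from 5 to 50 kb from its nearest TSS. The level of a mark is given as the percent of a zone's bases under peaks, which is a level per length. Promoter zones ran from 10001 bp at genes with 1 start to 20002 bp at Stat4 and Stat5b, whose 2 starts lie far apart. A promoter level therefore also depends on the number and spacing of a gene's starts. Socs1 and Socs3 are short and have no body zone. The H3K4me3 lists held 46707, 41936 and 42862 peaks and the H3K4me1 lists 24136, 13923 and 11922, and H3K4me3 peaks were called in the broad mode and H3K4me1 peaks in the narrow mode, so the marks cannot be told apart from the calling modes. Read totals were not used here. For H3K4me1 the fragments at a peak's summit could be recovered, and at the 9 genes they ranged from 4 to 15. GC B cell markers carried promoter H3K4me3 in 3 of 3 libraries at 10 of 10 genes. T cell markers did so at 2 of 7 (Lck and Gata3), myeloid markers at 2 of 5, erythroid markers at 3 of 4 and plasma cell markers at 4 of 4, where the share over all genes was 56.2%. Of the T cell list, Cd3e, Cd4, Cd8a and Il7r had no promoter peak of either mark in any library.

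The stretches that the results turn on are printed first, 5′ to 3′ on the gene's strand for promoters, from RefSeq promoter windows on GRCm38. Bases in exons of coding transcripts were left out. Stat4 is shown at both starts, because the upstream start was bare and the internal start was marked. Stat5b is also shown at both starts, as its upstream start lay under no peak but had H3K4me3 on either side. Stat5a is shown at its most downstream start because it resembles the internal start of Stat5b. Socs1 and Socs3 are shown as the genes that STATs are known to switch on. Capitals mark a STAT motif in Socs3 and, in Stat5a and Stat5b, the best matching stretch between them.
Stat4 upstream start (chr1:51986898-51987147, plus strand): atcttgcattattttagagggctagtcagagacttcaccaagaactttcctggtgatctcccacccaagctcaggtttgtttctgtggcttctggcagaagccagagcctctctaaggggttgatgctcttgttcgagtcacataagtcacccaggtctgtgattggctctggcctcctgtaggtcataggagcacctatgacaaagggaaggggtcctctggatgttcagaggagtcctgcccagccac
Stat4 internal start (chr1:52007990-52008239, plus strand): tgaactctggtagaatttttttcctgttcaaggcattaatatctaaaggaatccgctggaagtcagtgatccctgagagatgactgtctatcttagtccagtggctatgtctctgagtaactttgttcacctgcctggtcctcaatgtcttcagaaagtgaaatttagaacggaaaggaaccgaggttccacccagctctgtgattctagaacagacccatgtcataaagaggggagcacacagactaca
Stat5b upstream start (chr11:100850725-100850831, minus strand): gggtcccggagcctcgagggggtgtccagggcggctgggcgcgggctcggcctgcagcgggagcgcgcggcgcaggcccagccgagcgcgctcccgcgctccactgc
Stat5b internal start (chr11:100822571-100822820, minus strand): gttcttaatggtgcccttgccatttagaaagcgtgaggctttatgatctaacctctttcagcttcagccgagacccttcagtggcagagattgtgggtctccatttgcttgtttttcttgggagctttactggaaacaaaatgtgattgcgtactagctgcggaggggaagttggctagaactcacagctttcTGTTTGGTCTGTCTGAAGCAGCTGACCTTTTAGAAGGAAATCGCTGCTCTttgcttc
Stat5a downstream start (chr11:100860234-100860483, plus strand): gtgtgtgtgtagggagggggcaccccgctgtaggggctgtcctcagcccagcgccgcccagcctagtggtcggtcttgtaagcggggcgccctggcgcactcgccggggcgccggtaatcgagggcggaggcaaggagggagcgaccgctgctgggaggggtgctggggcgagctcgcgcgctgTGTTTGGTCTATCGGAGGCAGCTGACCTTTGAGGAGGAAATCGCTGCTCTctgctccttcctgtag
Socs1 (chr16:10785537-10785786, minus strand): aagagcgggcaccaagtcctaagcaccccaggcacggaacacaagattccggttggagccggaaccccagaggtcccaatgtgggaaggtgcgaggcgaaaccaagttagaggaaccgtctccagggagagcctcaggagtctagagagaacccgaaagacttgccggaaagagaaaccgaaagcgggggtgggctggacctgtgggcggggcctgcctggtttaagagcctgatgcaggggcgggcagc
Socs3 (chr11:117969367-117969616, minus strand): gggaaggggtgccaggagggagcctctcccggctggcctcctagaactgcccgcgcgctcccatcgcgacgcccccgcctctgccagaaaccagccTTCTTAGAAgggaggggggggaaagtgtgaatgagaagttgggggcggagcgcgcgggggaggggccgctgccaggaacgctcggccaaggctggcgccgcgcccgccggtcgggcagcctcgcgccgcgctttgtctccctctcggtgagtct
The last stretches are 3 of the places outside promoters' cores that lay under an H3K4me1 peak in all 3 libraries, on the plus strand of the GRCm38 genome. A further stretch of 22 bp upstream of Socs1 is not printed. No letter in the 3 printed is in capitals, because neither STAT motif occurs there.
Jak1 intron (chr4:101201977-101202171): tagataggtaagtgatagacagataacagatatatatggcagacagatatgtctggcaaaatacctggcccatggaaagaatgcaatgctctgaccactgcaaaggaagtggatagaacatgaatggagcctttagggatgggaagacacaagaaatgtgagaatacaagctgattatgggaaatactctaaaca
Jak1 upstream (chr4:101296947-101297051): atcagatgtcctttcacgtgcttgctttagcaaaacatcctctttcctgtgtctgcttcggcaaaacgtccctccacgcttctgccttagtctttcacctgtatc
Stat5b intron (chr11:100848745-100848930): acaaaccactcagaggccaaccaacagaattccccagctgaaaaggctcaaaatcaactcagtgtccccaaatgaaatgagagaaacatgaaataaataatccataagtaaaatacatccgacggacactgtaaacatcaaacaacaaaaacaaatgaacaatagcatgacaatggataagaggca

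The STAT motifs searched were TTCNNNGAA and TTCNNNNGAA, which read the same on both strands, so 1 search covers both, and N is any base. They were searched in the 300 bases from 250 before to 50 after each RefSeq start. All 9 genes matched by symbol and gave 12 windows, and 1 of the 12 held a motif, the TTCNNNGAA of Socs3. Among all 32851 windows, 8.3% held TTCNNNGAA, 6.95% TTCNNNNGAA and 14.6% either. The window of the upstream start of Stat5b was 82.7% G+C with 50 CpG, above 99.6% of all windows, and the median of all windows was 52.7% with 7 CpG. The windows of Stat4 were poorer in CpG, with 2 at the upstream and 4 at the internal start, and that of Socs3 held 31. The stretch in capitals of Stat5a and Stat5b, 50 bases long, was identical at 45 of them, 90%, and the next best of the 66 pairs of windows reached 62%. How reads with several possible placements were treated is not given in the sources used here.

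H3K4me3 stood at the promoters of all 9 genes in every library. The share of all genes with a promoter H3K4me3 peak in 3 of 3 libraries was 56.2%. H3K4me1 was scarcer, with a promoter peak in 3 of 3 libraries at 2 of the 9 genes, Jak1 and Stat5b, where the share over all genes was 6.17%. At 6 further genes it was seen in 1 or 2 libraries, and at Socs1 in none. With peaks limited to a −log10 q-value of at least 5, the H3K4me3 count was 6 of 9 and the H3K4me1 count 0 of 9. The median promoter level of H3K4me3 over the 9 genes was 39.3%, 24.1% and 32.0% in replicates 1, 2 and 3, against 10.1%, 7.30% and 8.14% over all genes.

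**Figure D1:**
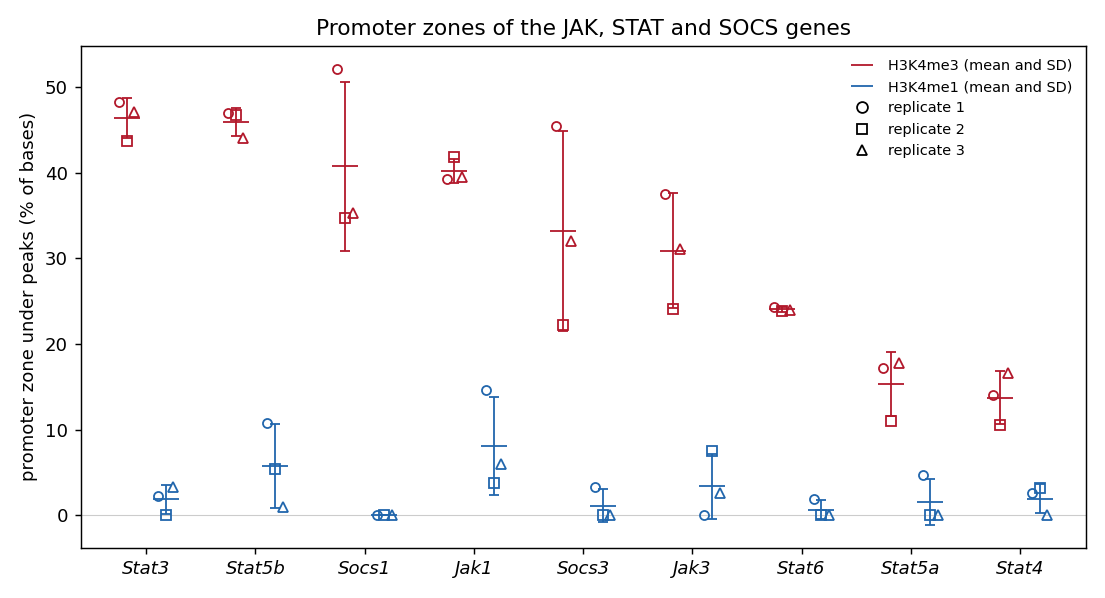
Percent of the promoter zone under peaks (y axis) for each gene (x axis), for H3K4me3 (red) and H3K4me1 (blue), with a symbol for each library, a horizontal bar for the mean and whiskers for the SD over 3 libraries. Every H3K4me3 symbol lies above every H3K4me1 symbol of the same gene, and the H3K4me3 means run from 46.4% at Stat3 down to 13.7% at Stat4.

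Among the kinases, Jak1 pairs with most cytokine receptors of lymphocytes, and Jak3 pairs only with the common gamma chain Il2rg. Promoter H3K4me3 of Jak1 (chr4:101152367-101265282, minus strand) covered 39.3%, 41.9% and 39.5% of the zone in replicates 1, 2 and 3, or 40.2% ± 1.43 (SD, n = 3). The 3 libraries lay close together, and the mean was above that of 94.9% of genes. Promoter H3K4me1 of Jak1 covered 14.6%, 3.72% and 5.92%, a mean of 8.07% ± 5.74 (SD, n = 3) above that of 99.4% of genes, with replicate 1 well above the others and a mean of 4.82% without it. Jak3 (chr8:71676296-71690575, plus strand) had 37.5%, 24.1% and 31.2% for H3K4me3, or 30.9% ± 6.74 (SD, n = 3). Its H3K4me1 levels were 0%, 7.52% and 2.63%, so the mark was absent in the library with the most H3K4me1 peaks and present in the others. The tallest average enrichment at any promoter of the 9 genes was that of Jak3 in replicate 2 of H3K4me3, 12.4 over a peak of 1961 bp, against 7.49 and 6.28 in replicates 1 and 3. A second H3K4me3 region in the Jak3 zone covered the start of Unc13a, 4539 bp away, so the zone holds the promoter of another gene too.

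Among the STATs, Stat3 answers to interleukin-6, interleukin-10 and interleukin-21, Stat6 to interleukin-4, and Stat5a and Stat5b to interleukin-2 and related cytokines. Stat3 (chr11:100885098-100939540, minus strand) had promoter H3K4me3 of 48.3%, 43.8% and 47.1%, or 46.4% ± 2.37 (SD, n = 3), the highest mean of the 9. A single peak of 4110, 4446 and 4784 bp covered all 4 of its starts in every library. Stat5b (chr11:100780731-100850724, minus strand) followed with 47.0%, 46.8% and 44.1%, or 46.0% ± 1.60 (SD, n = 3). The ranges of Stat3 and Stat5b overlapped, and both means were above those of 96.8% and 96.6% of genes.

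Stat6 (chr10:127642986-127660957, plus strand) was the steadiest, with 24.3%, 23.8% and 24.0%, or 24.0% ± 0.275 (SD, n = 3). It carried 1 promoter H3K4me3 peak per library, of 2435, 2381 and 2399 bp, centred 149, 106 and 90 bp after its start. Stat5a (chr11:100859351-100885169, plus strand) had 17.2%, 11.05% and 17.7%, or 15.3% ± 3.70 (SD, n = 3). Stat4 (chr1:51987148-52107189, plus strand), which relays interleukin-12 signals and is best known from T and NK cells, was lowest with 14.04%, 10.5% and 16.6%, or 13.7% ± 3.09 (SD, n = 3). This was above 58.9% of genes, close to the middle of the range. The promoter zone of Stat4, of 20002 bp, includes the part around a bare upstream start, against 10001 bp at Stat6. Stat5b has a zone of the same length and a mean of 46.0%. The part of zone length in the rank of Stat4 was not tested. Of the 7 T cell markers, Cd3e, Cd4, Cd8a and Il7r had no promoter H3K4me3 in these libraries and Bcl11b had 3.31% in replicate 1 alone. Lck had 53.3%, 42.9% and 48.8% and Gata3 33.3%, 32.9% and 24.1%, both above Stat4 in every library. The part of T cells in the Stat4 level was not tested.

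Of the inhibitors, Socs1 (chr16:10782240-10785536, minus strand) binds and blocks JAK kinases directly, and Socs3 (chr11:117966079-117970047, minus strand) acts mainly at receptors of the gp130 family. Socs1 had promoter H3K4me3 of 52.2%, 34.8% and 35.4%, or 40.8% ± 9.88 (SD, n = 3), and Socs3 45.5%, 22.3% and 32.0%, or 33.2% ± 11.7 (SD, n = 3). Replicate 1 was highest for both, and their spread was the widest among the 9 genes. At Socs1, replicate 1 held a single peak of 5218 bp. Replicates 2 and 3 held a peak of 2403 and 2870 bp over the start and a separate one of 1075 and 666 bp. The separate ones were centred 3279 and 3127 bp upstream of the Socs1 start, and Tnp2 starts 3124 bp upstream. The Socs1 promoter zone and level thus include the promoter of another gene too. No H3K4me1 peak lay in the Socs1 promoter zone in any library, and at Socs3 1 did, in replicate 1, where it covered 3.34% of the zone.

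In the order of mean promoter H3K4me3, which ran Stat3, Stat5b, Socs1, Jak1, Socs3, Jak3, Stat6, Stat5a and Stat4, neighbours overlapped in range at every step except that from Stat6 to Stat5a. The lowest Stat6 value, 23.8%, was above the highest Stat5a value, 17.7%. For H3K4me1 the order ran Jak1, Stat5b, Jak3, Stat4, Stat3, Stat5a, Socs3, Stat6 and Socs1, and every pair of neighbours overlapped in range. Both orders rank percents of zones that differ in length, not bases under peaks.

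The contrast of the marks at promoters ran one way. At 9 of 9 genes every H3K4me3 library was above every H3K4me1 library, and the share of all genes with a promoter peak for which this held was 84.4%. The difference of means was largest at Stat3, 44.5 percentage points, and smallest at Stat4, 11.8. Each of the 21 contrasts over genes and zones gave p = 0.1 in a two-sided exact permutation test over 6 libraries, with 0.1 after Benjamini-Hochberg adjustment over the 21. This is the smallest p the design allows, so none can pass 0.05. With peaks limited to a −log10 q-value of at least 5, the separation at promoters held at 6 genes. When each list was limited to its 10000 best peaks by q-value, 3 genes kept a promoter H3K4me3 peak in every library, and the contrast at Jak1 turned to −7.26 points.

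The exact starts set the genes apart further. H3K4me3 peaks covered 14, 11 and 13 of the 17 annotated starts of the 9 genes in replicates 1, 2 and 3, where 45%, 40.2% and 42% of all 41438 starts were covered. H3K4me1 covered 1, 0 and 1 of the 17, where 0.958%, 0.393% and 0.384% of all starts were covered. The covered ones were the internal start of Stat5b in replicate 1 and the downstream start of Jak3 in replicate 3. Stat3, Stat6, Jak1, Jak3 and Socs1 had every start covered by H3K4me3 in every library. The coding start of Socs3 was covered in replicates 1 and 3. In replicate 2 the nearest peak, of 1106 bp, was centred 979 bp upstream of it and covered 2% of the printed Socs3 sequence, which was covered whole in the others.

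Stat4 and Stat5b had H3K4me3 at or near an internal start and an upstream start under no peak. Near the upstream start, H3K4me3 was seen at Stat5b but not at Stat4. At Stat4 the upstream start, printed first above, lay under no peak of either mark, and its 250 upstream bases were bare in all 6 libraries. The internal start, 21095 bp into the gene, lay under H3K4me3 peaks of 1613 and 1631 bp in replicates 1 and 3, with enrichment of 8.69 and 5.24. In replicate 2 a peak of 1335 bp with enrichment of 9.67 was centred 902 bp after that start without reaching it. At Stat5b the internal start, 28196 bp into the gene, was covered in 3 of 3 libraries by peaks of 2140, 5932 and 5558 bp. The upstream start of Stat5b was covered in none, and its printed bases were bare in every library. H3K4me3 peaks stood on either side of that gap in every library, small ones of 242, 219 and 325 bp centred 581, 569 and 606 bp upstream, and larger ones of 2445, 2132 and 2480 bp centred 1713, 1715 and 1798 bp into the gene. The gap coincides with the window of 82.7% G+C given above, and the part of base composition in it was not tested.

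Stat5a resembled neither. Its 3 starts lie within 1133 bp, and different ones were covered in different libraries. Replicate 1 covered the most upstream and the most downstream start, replicate 2 the middle one, and replicate 3 the most downstream one. The largest peak of each library, of 1566, 856 and 1974 bp, was centred after the most downstream start, by 577, 931 and 283 bp.

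H3K4me1 summits in promoter zones lay on either side of the nearest start. They numbered 13, 9 and 5 in replicates 1, 2 and 3, and 11, 5 and 4 of them were downstream. Over all genes the downstream share was 57.7%, 57.1% and 58.4%, with a summit counted once for each gene whose promoter zone its peak reached. The few summits at the 9 genes share genes and do not give a test. Downstream summits were seen at Jak1 and Stat5b in every library and at Stat5a and Socs3 in replicate 1. They were also seen at Stat3, 1448 and 1362 bp after a start in replicates 1 and 3, and at Stat6, 1146 bp after the start in replicate 1. At Stat4 they lay 4891 and 4894 bp after the internal start in replicates 1 and 2, with a further one at 3298 bp in replicate 2. The upstream ones were at Jak3 and Stat5b. At Jak3, 1 lay 3503 bp before the annotated gene start in replicate 2, in a peak 888 bp from a start of Unc13a. The others lay inside Jak3, 307 and 22 bp before its downstream start in replicates 2 and 3. At Stat5b they lay 2079 and 3201 bp before the internal start in replicate 1 and 3848 and 4755 bp in replicate 2.

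Gene bodies split the genes into groups with and without marks. H3K4me3 lay in the body zone of Stat3, Stat4, Stat5b and Jak1 in 3 of 3 libraries, 4 of the 7 genes that have such a zone, and in the body of Stat5a, Stat6 and Jak3 in none. Over all genes with a body zone the share was 25.2%. H3K4me1 lay in the body in 3 of 3 libraries only at Jak1, where the share over all genes was 8.67%, and Stat3, Stat4 and Stat5b had it in 1 or 2 libraries. The count rose from 1 to 2 genes without H3K4me1 replicate 2 and to 3 without H3K4me1 replicate 3. The 3 genes with no body peak have shorter body zones, of 19685, 12971 and 8024 bp, against 49282 bp at the shortest of the others.

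**Figure D2:**
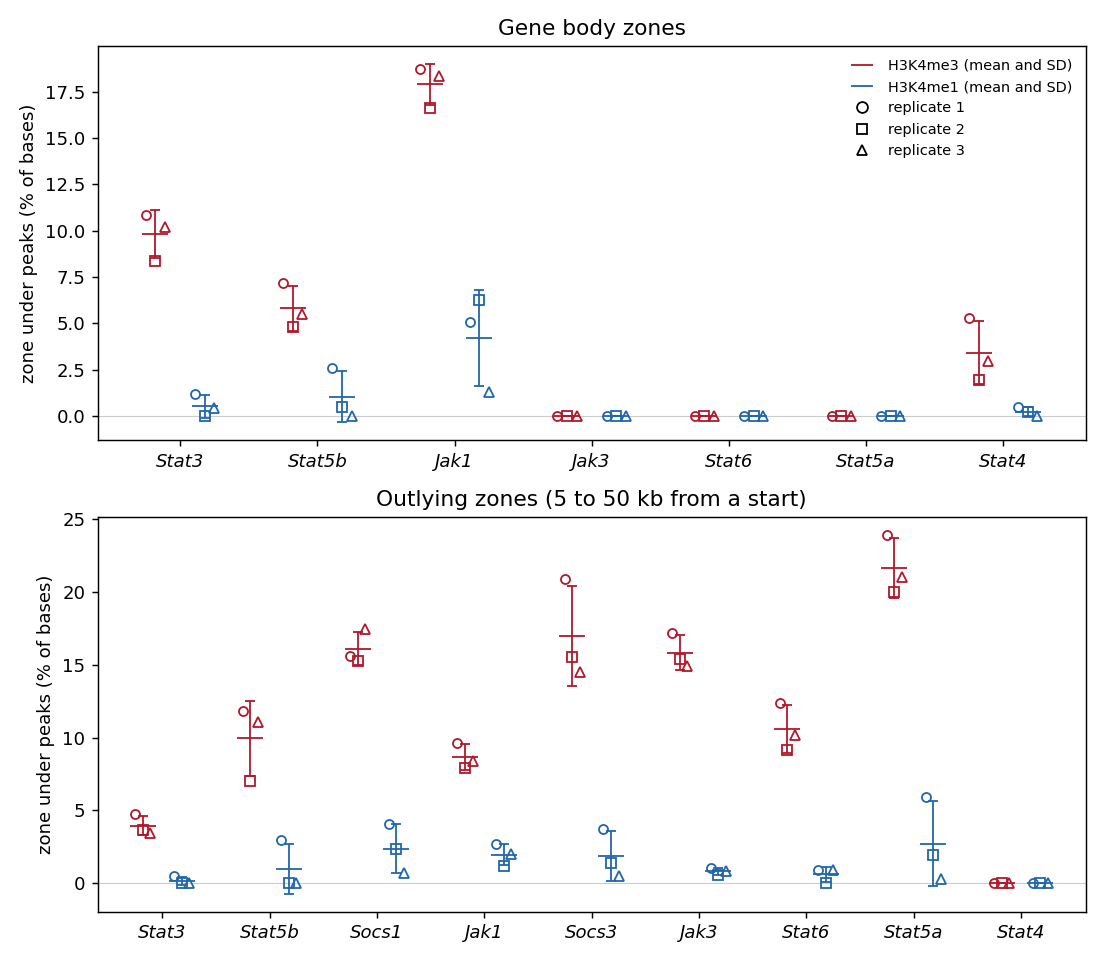
Percent of the body zone (upper panel) and of the outlying zone (lower panel) under peaks (y axis) for each gene (x axis), with a symbol for each library, a bar for the mean and whiskers for the SD over 3 libraries, H3K4me3 in red and H3K4me1 in blue. Jak1 has the highest body level of both marks, and Stat4 has no outlying peak of either mark.

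Jak1 had the densest body. H3K4me3 covered 18.7%, 16.6% and 18.3% of it, or 17.9% ± 1.11 (SD, n = 3), above 96.7% of genes, in 13, 11 and 13 peaks. H3K4me1 covered 5.05%, 6.29% and 1.29%, or 4.21% ± 2.60 (SD, n = 3), above 98.8% of genes, in 14, 15 and 5 peaks. Replicate 3 held fewest. Stat3 followed with body H3K4me3 of 10.9%, 8.38% and 10.2%, or 9.81% ± 1.29 (SD, n = 3), and Stat5b with 7.17%, 4.82% and 5.48%, or 5.82% ± 1.21 (SD, n = 3). Stat4 had 5.28%, 1.96% and 3.00%, or 3.41% ± 1.70 (SD, n = 3). At 4 of 4 genes with a body peak every H3K4me3 library was above every H3K4me1 library, where the share was 51% of the 8011 genes with a body peak. With peaks limited to a −log10 q-value of at least 5, the Stat4 body contrast turned to −0.0428 points and 2 genes kept the separation.

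**Figure D3:**
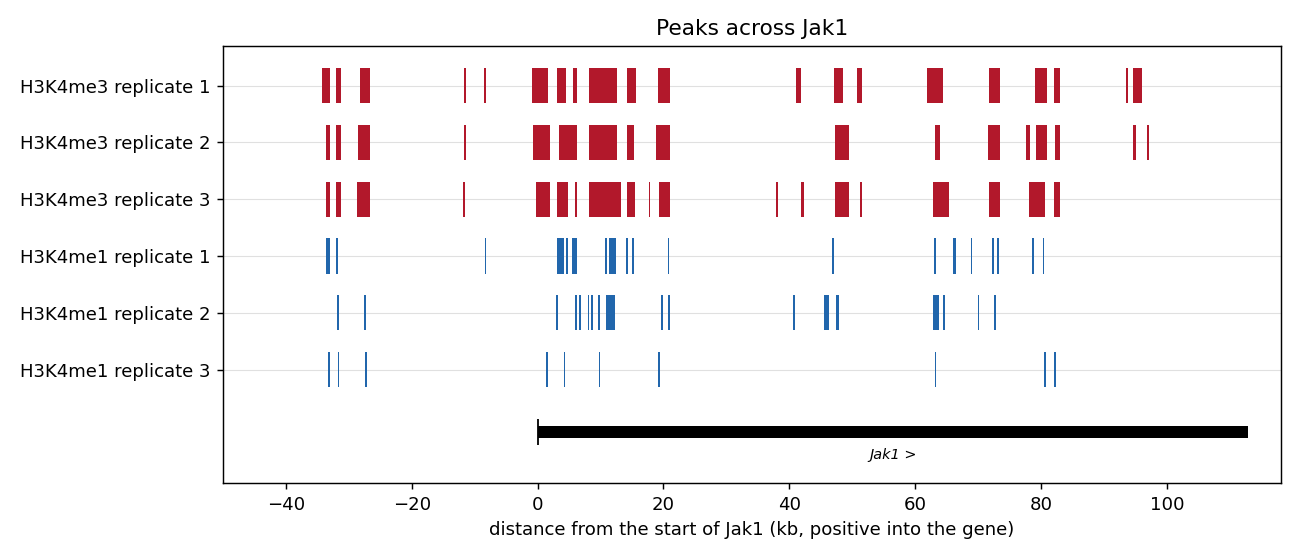
Peaks of each library (rows) against the distance from the Jak1 start in kb (x axis, positive into the gene), with the gene as a black bar and its start as a vertical tick. H3K4me1 peaks (blue) recur in the first part of the gene, in the body and near 30 kb upstream, while the start itself carries only H3K4me3 (red).

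At Jak1, 17 of 19, 14 of 18 and 10 of 10 H3K4me1 peaks of replicates 1, 2 and 3 overlapped an H3K4me3 peak of some library. Joined over libraries, the H3K4me1 peaks of Jak1 formed 33 regions, 3 of them in all 3 libraries, 7 in 2 and 23 in 1. The H3K4me3 peaks formed 22 regions, 14 of them in all 3 libraries. The H3K4me1 region of the printed intron sequence, chr4:101201511-101202489, lay 63282 bp into the gene, with 10, 8 and 7 fragments at the summits of replicates 1, 2 and 3. The stretch common to the 3 libraries is 195 bp long, with 40% G+C and 0 CpG. The region chr4:101260894-101262390, 3640 bp into the gene, had 8, 6 and 7 fragments, but no base of it was under a peak in all 3 libraries. The region chr4:101296783-101297324 lay 31772 bp upstream of the start, in no annotated protein-coding gene, with 9, 7 and 7 fragments and a common stretch of 105 bp. It lay inside an H3K4me3 region, chr4:101296441-101297349, found in 3 of 3 libraries, and an H3K4me3 region of higher enrichment was centred 27652 bp upstream, with enrichment of 10.99, 7.44 and 7.45. None of the outlying peaks of Jak1 was within 5 kb of a start of another protein-coding gene.

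Outlying H3K4me3 was found in 3 of 3 libraries at 8 of the 9 genes, where the share over all genes was 60.5%, and Stat4 had none in any library. Outlying H3K4me1 was found in 3 of 3 libraries at 5 of the 9, Stat5a, Jak1, Jak3, Socs1 and Socs3, where the share was 20.5%. At a −log10 q-value of at least 5 this count was 1. At 8 of 8 genes with an outlying peak every H3K4me3 library was above every H3K4me1 library, where the share was 76.7% of the 17026 genes with an outlying peak. These zones hold other genes. Apart from Jak1 and Stat4, every gene of the set had outlying peaks within 5 kb of the start of another gene.

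The outlying zone of Stat5a had the highest H3K4me3 level, 23.9%, 19.98% and 21.1%, or 21.7% ± 2.04 (SD, n = 3), above 98.4% of genes. It lies largely in its neighbours. Of its 13, 10 and 12 H3K4me3 peaks, 5, 4 and 5 were within 5 kb of a Stat5b start, and it had no body peak of its own. Stat5b starts 8627 bp from Stat5a on the other strand, and the 3′ ends of Stat5a and Stat3 overlap, so peaks between them belong to the zones of several genes at once. Of the distinct peaks counted over the 9 genes, 15 of 93, 12 of 86 and 13 of 89 H3K4me3 peaks fell in zones of several of them. For H3K4me1 this was 13 of 65, 5 of 41 and 1 of 23.

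**Figure D4:**
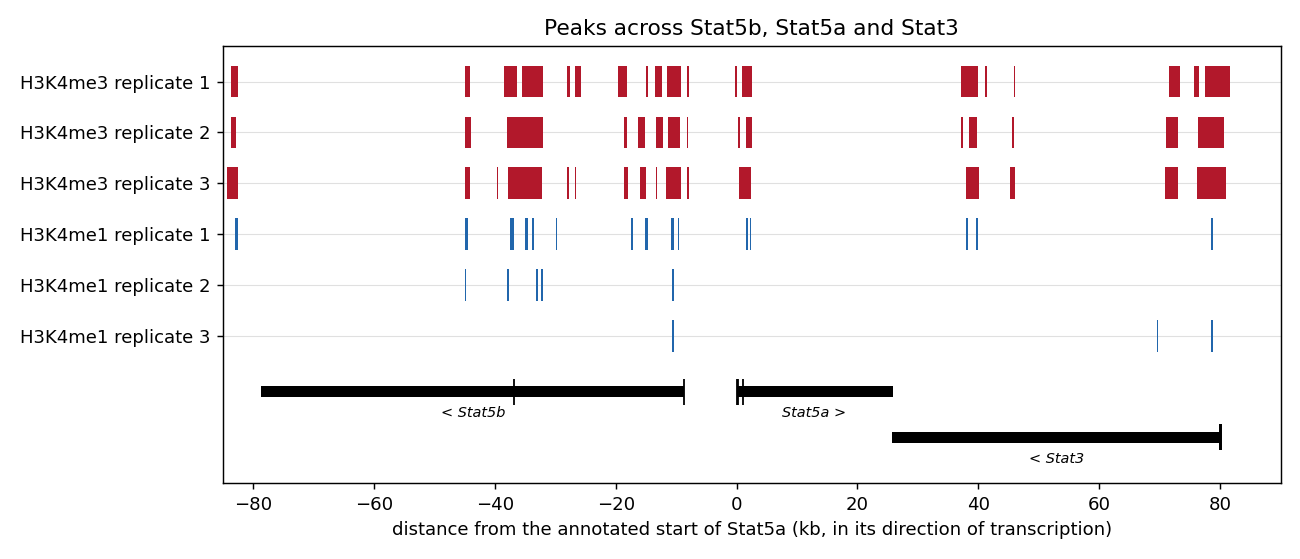
Peaks of each library (rows, H3K4me3 red, H3K4me1 blue) against the distance in kb from the annotated start of Stat5a, with genes as black bars, vertical ticks for the starts of coding transcripts and arrows for direction. H3K4me3 peaks cluster at the Stat3 starts, near both Stat5b starts and near the Stat5a starts, and a single H3K4me1 position in Stat5b recurs in all 3 libraries.

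The H3K4me1 region that recurred in Stat5b, chr11:100848584-100848972, lay in an intron 1946 bp after the upstream start, on an H3K4me3 region seen in all 3 libraries. Its summits held 7, 5 and 4 fragments, the lowest height at the 9 genes being 4. The printed common stretch of 186 bp had 37.6% G+C, far below the start beside it. A further Stat5b position, 36073 bp into the gene, had 11 and 11 fragments in replicates 1 and 2 and no peak in replicate 3. Replicate 3 of H3K4me1 held 1 peak in all zones of Stat5b, against 14 and 5 in replicates 1 and 2, and it was also the list with the fewest peaks.

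Around Socs1 the outlying zone held the H3K4me1 that the promoter zone lacked. H3K4me1 formed 11, 6 and 3 peaks there in replicates 1, 2 and 3 and covered 4.09%, 2.35% and 0.697%, or 2.38% ± 1.70 (SD, n = 3), above 98.3% of genes, and 1.52% without replicate 1. H3K4me3 covered 15.6%, 15.3% and 17.5%, or 16.1% ± 1.17 (SD, n = 3). The H3K4me1 region in all 3 libraries, chr16:10806046-10806472, lay 20723 bp upstream of Socs1 and 207 bp from a start of Prm1, with 6, 7 and 6 fragments. The stretch of it common to the 3 libraries is 22 bp long. Prm1, Prm2, Prm3 and Tnp2 encode sperm chromatin proteins, and the promoter zone of each held an H3K4me3 peak in 3 of 3 libraries. These zones share bases with that of Socs1 at Tnp2, whose start is 3124 bp from the Socs1 start, at Prm3 and at Prm2. On the other side, H3K4me3 peaks of 4160, 4036 and 4698 bp in replicates 1, 2 and 3 were centred in no annotated protein-coding gene. Their centres lay 15152, 16210 and 15823 bp beyond the Socs1 start, with a separate peak of 254 bp at 18101 bp in replicate 1. Noncoding genes were not examined.

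**Figure D5:**
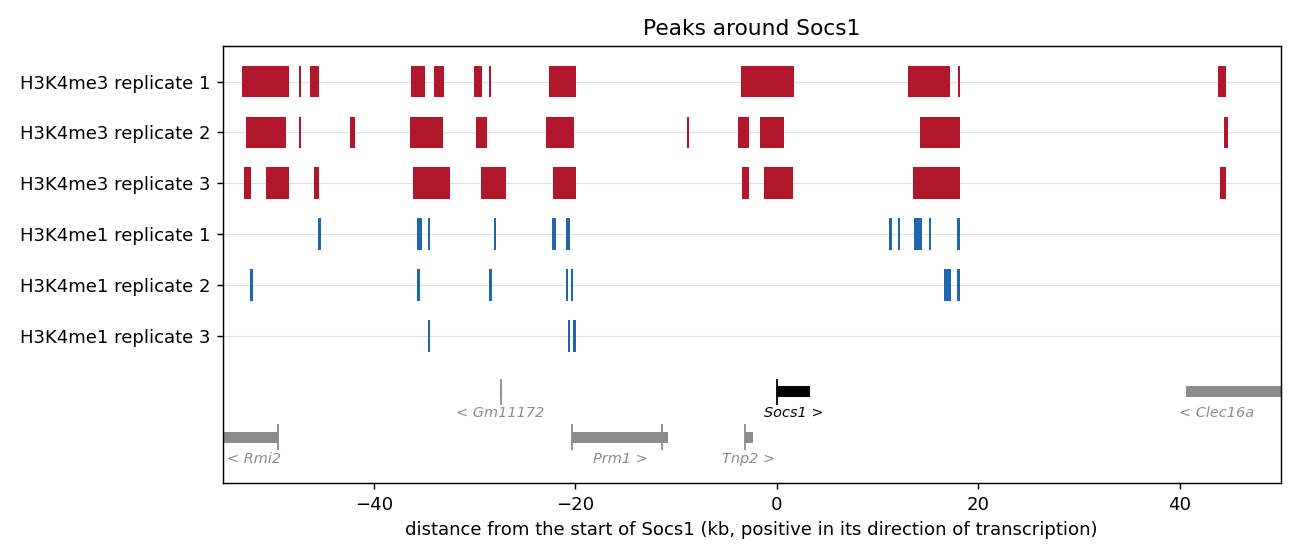
Peaks of each library (rows, H3K4me3 red, H3K4me1 blue) against the distance in kb from the Socs1 start, positive in its direction of transcription, with Socs1 as a black bar and selected neighbouring genes as grey bars with ticks at their starts. No H3K4me1 peak lies within 5 kb of the Socs1 start, while H3K4me1 peaks of all 3 libraries lie near 20 kb upstream.

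Around Socs3, H3K4me1 formed 9, 5 and 2 outlying peaks, covering 3.75%, 1.35% and 0.487%, or 1.86% ± 1.69 (SD, n = 3) and 0.919% without replicate 1, and H3K4me3 covered 20.9%, 15.6% and 14.5%, or 17.0% ± 3.42 (SD, n = 3). Of its 14 H3K4me3 regions 12 were in all 3 libraries, many of them inside Pgs1, the nearest neighbouring gene. Of its 14 H3K4me1 regions 0 were in all 3 and 3 were in 2. Its highest H3K4me1 summits held 15, 10 and 13 fragments in replicates 1, 2 and 3, and the highest over the 9 genes held 15, 11 and 13.

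Joined over libraries, the 9 genes held 100 distinct regions of each mark. For H3K4me3, 67 were in all 3 libraries, 15 in 2 and 18 in 1, and for H3K4me1 the numbers were 5, 18 and 77. Of the H3K4me1 peaks, 86.2%, 87.8% and 91.3% overlapped an H3K4me3 peak of some library, where 80%, 80.7% and 84.2% of all H3K4me1 peaks did. In windows of 201 bp around H3K4me1 summits a STAT motif occurred in 5 of 65, 5 of 41 and 2 of 23, where it occurred in 10.7%, 10.5% and 10.6% of all summit windows.

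The rest of the pathway, taken from 4 lists that were also drawn up with earlier results known, had promoter H3K4me3 in 3 of 3 libraries at 9 of 10 other family members, 9 of 9 other inhibitors, 16 of 18 cytokine receptors and 14 of 14 targets, where the share over all genes was 56.2%. The exceptions were Socs2, with 8.10%, 0% and 5.13%, and the receptors Il7r and Il12rb2, with no promoter peak of either mark in any library. Il12rb2 is the signalling chain of the interleukin-12 receptor, upstream of Stat4. Promoter H3K4me1 in 3 of 3 libraries was found at 0 of 10, 2 of 9, 6 of 18 and 4 of 14 of these lists, with Cish counted in the first and the last, where the share over all genes was 6.17%. The highest promoter H3K4me3 mean among receptors was that of Il21r, the receptor for the T follicular helper cytokine interleukin-21, with 100%, 97.4% and 100%. The highest promoter H3K4me1 mean among receptors was that of Ifngr1, the interferon gamma receptor, with 23.3%, 6.04% and 12.3%. Without replicate 1 it fell from 13.9% to 9.17%, and Il21r led with 9.33%. Among inhibitors the phosphatase Ptpn1 was highest for both marks, 74.0% ± 5.40 and 11.8% ± 4.09 (SD, n = 3). Among targets Bcl6, the master repressor of the GC reaction, led for H3K4me3 with 84.4% ± 0.710 (SD, n = 3), and Mcl1, a survival factor, had the highest H3K4me1 mean with 13.9%, 6.42% and 2.98%, or 7.78% ± 5.61 (SD, n = 3). This overlapped the 8.75%, 4.97% and 9.17% of Bcl6, and Bcl6 led without replicate 1, with 7.07% against 4.70%, and without replicate 2, with 8.96% against 8.46%. Among other family members Stat2 had the highest H3K4me1 mean with 6.74%, 0% and 2.24%, or 2.99% ± 3.43 (SD, n = 3). Without replicate 1 it was 1.12%, and Jak2 led with 1.30%.

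The gene most like each of the 9 was sought among all genes as the smallest Euclidean distance over 18 values, 3 zones in 6 libraries. A missing body zone, as at Socs1 and Socs3, was entered as 0, the same as a body without peaks. It was Tbp for Stat3 at 6.88 percentage points, March1 for Stat4 at 5.36, Ginm1 for Stat5a at 5.89, Il16 for Stat5b at 8.56 and Mrpl51 for Stat6 at 3.01. It was Cap1 for Jak1 at 10.2, Cd3eap for Jak3 at 8.08 and Slc25a45 for Socs3 at 8.13. For Socs1 it was Tnp2 at 4.82, whose start is 3124 bp away and whose zones share most bases with those of Socs1.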

How the data were processed

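Mint-ChIP peak lists of 6 libraries of WT splenic GC cells were used, 3 per mark, with 1 list per library and no pooling. GEO's processing notes name BWA, Picard, HOMER, Genrich and mm10, without roles or versions, and the layout is that of MACS2, whose settings are not given in the sources used here. Fold enrichment was deposited by the authors as a linear ratio of fragment pileup over local background, at the summit in H3K4me1 lists and averaged over the peak in H3K4me3 lists. The −log10 p-values and −log10 q-values of the same comparison were deposited beside it, and the lowest deposited −log10 q-value was 1.31 to 1.32 for H3K4me1 and 1.02 to 1.14 for H3K4me3. The score that the authors deposited repeats the q-value on a rounded scale, so it was left aside. Fold enrichment and p-value together gave whole fragments at every H3K4me1 summit, to a tolerance of 0.0005.

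Genes and TSSs came from GENCODE M21 basic (GRCm38), with 21851 protein-coding genes and 41438 distinct TSSs of coding transcripts. A peak was placed by its nearest TSS of the gene, and overlap meant at least 1 bp. Levels were computed in Python 3.11.15 (numpy 2.4.6, scipy 1.17.1), with figures in matplotlib 3.10.9. The placement code was run on 200 simulated peaks, drawn mostly inside promoter and body zones, and 0 were misplaced. The same zone definitions drew and placed these peaks, so this checks the code and not the definitions. Marks were compared per gene and zone with a two-sided exact permutation test over the 20 assignments of 6 libraries, whose smallest p is 0.1. The members and lists were chosen with earlier results of these data known. All 9 genes were named, and from each further list the genes without promoter H3K4me3 and those with the highest mean for each mark, of which 1 is not reported here. H3K4me1 heights of 4 to 15 fragments limit what could be called. Alternatives were a −log10 q-value of at least 5, the 10000 best peaks, a promoter distance of 1 kb, the peak's centre, the annotated gene start alone, leaving out each replicate, and the replicate number as a block.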

Additional observations from a re-analysis of the deposited data

How the results depend on the processing

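Recomputed under the alternatives, 67 counts stayed within 1.5 times the reported count and 14 did not, and among single contrasts 227 kept their direction and 3 reversed. With a −log10 q-value of at least 5, promoter H3K4me3 in every library fell to 6 of 9 genes and promoter H3K4me1 to 0 of 9. The separated promoter contrasts fell to 6. Outlying H3K4me1 fell to 1 and the separated body contrasts to 2, and the Stat4 body contrast was −0.0428 points. With the 10000 best peaks, promoter counts were 3 (H3K4me3) and 1 (H3K4me1), outlying counts 5 and 3, separated contrasts 3 (promoter), 1 (body) and 4 (outlying), and the contrasts of Jak1 promoter and Stat4 body were −7.26 and −0.0514 points. This limit keeps a smaller share of the longer H3K4me3 lists. At a promoter distance of 1 kb, promoter H3K4me1 was found in every library at 0 genes and body H3K4me1 at 2. Leaving out each replicate in turn gave body H3K4me1 counts of 1 to 3, with 2 without H3K4me1 replicate 2 and 3 without H3K4me1 replicate 3, and the cause was not tested. Correlations of deviations at the same replicate number were 0.135, 0.0496 and 0.0225, and those at other numbers ran from −0.0997 to 0.0767. Values this weak cannot show whether the replicate numbers pair the libraries. Sign flips within the replicate block gave an exact p of 0.25 for each contrast, the smallest they can give, with the Stat3 promoter difference at 44.5 points.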
